A study of Mus musculus with 6 samples.

Results

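The comparison described here sets whole testes of Abcg8 knockout mice fed ezetimibe against whole testes of Abcg8 knockout mice fed plain chow. It sets 4 of the 6 arrays of the study against each other, 2 for each diet, and it was taken across all genes of the array. A probe belonged to the comparison when its signal-to-noise value was at least 3 on both arrays of the ezetimibe-fed group or on both arrays of the chow-fed group. That held for 15656 of the 33012 probes on the array, against 16015 when detection in the wild-type group was allowed as well. With 1 probe kept for each gene, the one with the highest mean signal, the probes with a single gene symbol stood for 8101 genes.

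ABCG8 and its partner ABCG5 form the transporter that pumps cholesterol and plant sterols out of enterocytes into the gut and out of hepatocytes into bile. Without either of them, plant sterols from the diet accumulate in blood and tissues, the disorder known in humans as sitosterolaemia. Ezetimibe binds NPC1L1, the protein that takes up sterols at the surface of the gut, and so keeps plant sterols from entering the body. In the testis, Leydig cells of the interstitium turn cholesterol into testosterone, resident macrophages lie beside them, and Sertoli cells in the tubules carry the germ cells through meiosis and into sperm.

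The ezetimibe-fed group comprised 2 male Abcg8 knockout mice whose chow contained 0.005% ezetimibe. The chow-fed group comprised 2 male Abcg8 knockout mice without the drug. Values of 2 male wild-type mice on chow are given for orientation, and their arrays also entered the normalisation and the spread behind each standard error and p-value. All mice were C57BL/6J adults of 10 to 12 weeks, and the labels give each array a number of its own without saying whether tissue was pooled. The knockout is carried by both diet groups in every cell, so the contrast holds the effect of the drug-containing diet in the absence of ABCG8 and has no counterpart in wild-type mice here. How long the drug was given, and how many cages or litters the animals came from, is not stated in the labels, so the p-values below measure the spread between these samples alone.

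Raw signal had a median of 583 and 614 on the ezetimibe arrays, 611 and 515 on the chow-fed knockout arrays, and 678 and 258 on the wild-type arrays. Between 15371 and 16632 probes were detected on an array. After quantile normalisation the log2 signals correlated across probes at r = 0.987 between the 2 ezetimibe arrays, at 0.988 between the 2 chow-fed knockout arrays, and at 0.983 to 0.987 between arrays of the different diets. Each pair of arrays of different diets thus correlated slightly less than the arrays of 1 diet. Probes are not independent replicates, and the precision of every value is limited by the 2 arrays in a group. All levels below are quantile-normalised log2 signals, and each difference is ezetimibe-fed minus chow-fed knockout on that scale.

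The probe for Abcg8, the deleted gene, read 14.42 and 14.40 in ezetimibe-fed knockouts, 14.04 and 14.35 in chow-fed knockouts, and 10.34 and 10.29 in wild-type testes. Both knockout groups were therefore brighter than wild-type at this probe. The sources used here do not say whether the probe lies inside the deletion, so it is no check of the deletion, and it does not bear on which knockouts received the drug. Between the diets Abcg8 differed by 0.22 ± 0.13 (SE), with a limma adjusted p of 0.913. The probe for Abcg5, its partner, was not detected in enough arrays to enter the comparison.

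No probe passed the test for a difference between the diets. In limma's moderated test over 16015 probes, 0% were called at an adjusted p under 0.05, and the lowest adjusted p was 0.444. At an unadjusted p under 0.05 there were 409 probes higher in ezetimibe-fed testes, or 2.55%, and 513 lower, or 3.2%, together 922 where 801 are expected if no probe differs. Of the 13764 probes detected on all 4 knockout arrays, 244 were higher and 298 lower, where 688 are expected in both directions together. The excess over all probes thus lay among probes that were not detected on all 4 of these arrays. Among the 8101 genes, 189 or 2.33% were higher and 249 or 3.07% were lower at that unadjusted threshold. The 2 values of ezetimibe-fed testes lay wholly above those of chow-fed knockouts for 1603 genes, or 19.8%, and wholly below them for 1592 genes, or 19.7%. Since 2 arrays against 2 allow no p below 0.333 by exact permutation, single genes can be read only through limma, and every count below is a description to be set beside these background shares.

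The median difference over the 8101 genes was 0.0028, with 4002 genes or 49.4% below 0, and 90% of the genes lay between -0.46 and 0.37. The median standard error of a gene's difference was 0.133. A difference of at least 1 on the log2 scale was read for 151 probes higher and 214 lower in ezetimibe-fed testes. Of the 13764 probes detected on all 4 knockout arrays, only 16 were higher and 21 lower by that much, so most of the large differences came from probes that were dim in 1 of the diets. A further 762 probes entered through detection in the ezetimibe-fed group alone and 1130 through the chow-fed group alone. Where a probe was not well above background on either array of a group, the difference is given below only as "at least" so many fold, with the dim values raised to the lowest detected signal of their array.

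**Figure D1:**
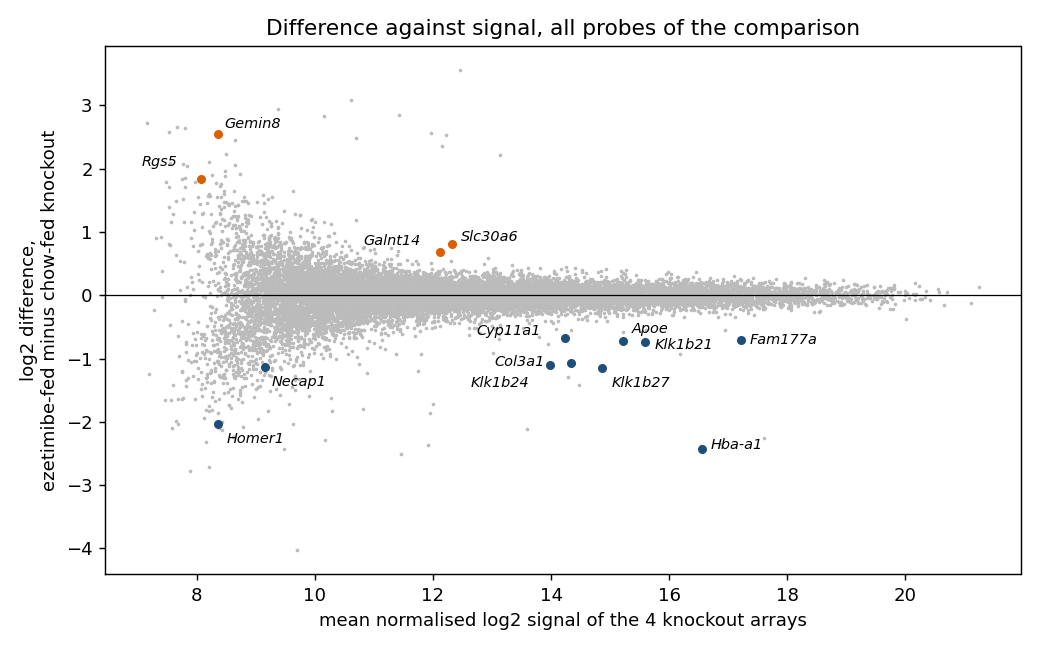
Each grey point is 1 of 15656 probes, with the mean normalised log2 signal of the 4 knockout arrays on the x axis and the log2 difference, ezetimibe-fed minus chow-fed knockout, on the y axis; coloured points are genes named in the text. The cloud narrows with signal, and the bright genes that stand below it are Hba-a1 at -2.43, Klk1b27 at -1.16, Klk1b24 at -1.10, Col3a1 at -1.07, Klk1b21 at -0.74, Apoe at -0.72 and Fam177a at -0.71.

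Several bright genes stood below the others. The kallikreins Klk1b27, Klk1b24 and Klk1b21, the collagen Col3a1, the globin Hba-a1 and the apolipoprotein Apoe all lay 0.72 or more below chow-fed knockouts on the log2 scale. They did not pass in the fit over all probes with a common prior variance. With a prior variance that follows the signal level, an alternative setting of the same limma fit, 14 probes passed and 0 of them were higher in ezetimibe-fed testes. Those 14 comprised Hba-a1 (adjusted p = 0.0084), Klk1b21 (0.0084), Klk1b24 (0.0084), Col3a1 (0.013), Klk1b27 (0.0149), both probes of Fam177a (0.0084 and 0.0149), Apoe (0.0497) and 6 probes without a gene name. With the trend and a robust prior together 7 probes passed, and Hba-a1 and Klk1b27 were not among them. With the common prior and 1 chow-fed knockout array left out, 0 probes passed. Without the first ezetimibe array 4 probes passed, and without the second 2 passed, all of them higher and all of them bright on the 1 ezetimibe array that was left.

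The tissue kallikreins are secreted serine proteases encoded side by side on chromosome 7. Klk1 releases kinins from kininogen, and its mouse-specific relatives, the Klk1b genes, arose by repeated duplication. Klk1b21, Klk1b24 and Klk1b27 are known from mouse testis as products of Leydig cells that depend on androgen, while other members are best known from the submandibular gland. The 200 bases up to and including the TTTAAA box are shown for these 3 genes, for Klk1b1, which also had a lower level, and for Klk1b26, a bright member whose level was close between the diets. The sequences are from RefSeq, build GRCm38.p6, plus strand, 5′ to 3′. They lie at chr7:44102102-44102301 for Klk1b21, chr7:44188011-44188210 for Klk1b24, chr7:44052079-44052278 for Klk1b27, chr7:43966524-43966723 for Klk1b1 and chr7:44012458-44012657 for Klk1b26. Capitals mark the TTTAAA box and, where present, an 89-base stretch that Klk1b21, Klk1b24 and Klk1b27 share letter for letter.
Klk1b21: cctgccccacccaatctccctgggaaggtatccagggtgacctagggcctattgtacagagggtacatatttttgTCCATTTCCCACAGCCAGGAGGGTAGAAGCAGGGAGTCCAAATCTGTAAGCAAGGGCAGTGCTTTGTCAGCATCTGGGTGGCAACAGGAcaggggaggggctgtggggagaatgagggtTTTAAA
Klk1b24: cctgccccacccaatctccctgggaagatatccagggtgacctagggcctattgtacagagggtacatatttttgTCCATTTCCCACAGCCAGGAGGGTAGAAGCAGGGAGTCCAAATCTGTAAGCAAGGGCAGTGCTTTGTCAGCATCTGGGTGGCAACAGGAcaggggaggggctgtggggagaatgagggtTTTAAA
Klk1b27: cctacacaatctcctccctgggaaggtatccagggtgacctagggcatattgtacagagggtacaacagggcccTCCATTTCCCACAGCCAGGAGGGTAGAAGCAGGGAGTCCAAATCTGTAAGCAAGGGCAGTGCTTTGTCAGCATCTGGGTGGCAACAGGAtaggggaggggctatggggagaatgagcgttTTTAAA
Klk1b1: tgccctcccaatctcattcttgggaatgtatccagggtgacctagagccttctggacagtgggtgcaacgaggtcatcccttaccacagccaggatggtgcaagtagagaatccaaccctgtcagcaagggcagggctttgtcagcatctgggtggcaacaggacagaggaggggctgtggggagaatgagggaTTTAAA
Klk1b26: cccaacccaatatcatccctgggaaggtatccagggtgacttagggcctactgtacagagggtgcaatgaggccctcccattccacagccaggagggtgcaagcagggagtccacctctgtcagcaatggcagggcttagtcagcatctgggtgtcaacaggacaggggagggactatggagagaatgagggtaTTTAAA

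Of the 9 Klk1b genes of the comparison, all of which had a promoter in the table, 3 held that 89-base stretch, and 3 of the 32851 promoters of the whole table did. The stretch was looked for after the levels had been seen, so it describes these genes and tests nothing. Over the 200 bases, Klk1b21, Klk1b24 and Klk1b27 were 88.8% to 99.5% identical to each other and 77.3% to 85.6% identical to the other 6 Klk1b genes, which were 78.7% to 91.5% identical among themselves. TTTAAA reads the same on both strands and occurred in the 250 bases before the start in 12.1% of all promoters. The annotated start relative to the box differs between these genes, and in Klk1b21 the box extends 10 bases past it.

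Of the 18 kallikreins with a probe, 11 were in the comparison, all of them detected on all 4 knockout arrays. They split into 4 lower and 7 higher in ezetimibe-fed testes, and the median difference of 0.11 covers members far apart from each other. Of these, 4 lower and 0 higher members had an unadjusted p under 0.05, against 3.07% and 2.33% of all genes.

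Klk1b27 read 14.20 and 14.38 in ezetimibe-fed testes, against 15.36 and 15.54 in chow-fed knockouts and 14.71 and 14.17 in wild-type testes, a difference of -1.16 ± 0.21 (SE; limma adjusted p = 0.495). Klk1b24 read 13.30 and 13.57 in ezetimibe-fed testes, against 14.56 and 14.52 in chow-fed knockouts and 14.09 and 13.80 in wild-type testes, a difference of -1.10 ± 0.15 (limma adjusted p = 0.495). Klk1b21 read 15.17 and 15.28 in ezetimibe-fed testes, against 15.97 and 15.97 in chow-fed knockouts and 15.46 and 15.38 in wild-type testes, a difference of -0.74 ± 0.10 (limma adjusted p = 0.45). For each of the 3 genes the diets did not overlap, and both chow-fed knockout values were the highest of all 6 arrays. Klk1b1 followed with 10.22 and 10.72 in ezetimibe-fed testes, against 11.45 and 11.16 in chow-fed knockouts and 10.57 and 9.97 in wild-type testes (-0.83 ± 0.28).

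The neighbouring Klk1b26 read 17.28 and 17.23 in ezetimibe-fed testes, against 17.15 and 17.15 in chow-fed knockouts, a difference of 0.11 ± 0.09. Klk1b8 differed by 0.02, a sign that turned under median scaling, Klk1b11 by 0.13, Klk1b5 by 0.16 and Klk1b9 by 0.18. Klk1 itself read 13.86 and 13.92 in ezetimibe-fed testes, against 13.74 and 13.55 in chow-fed knockouts (0.25 ± 0.11), and Klk6 differed by 0.34. Probe sequences were not used here, and because these genes are so alike a probe may read transcripts of more than 1 of them.

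**Figure D2:**
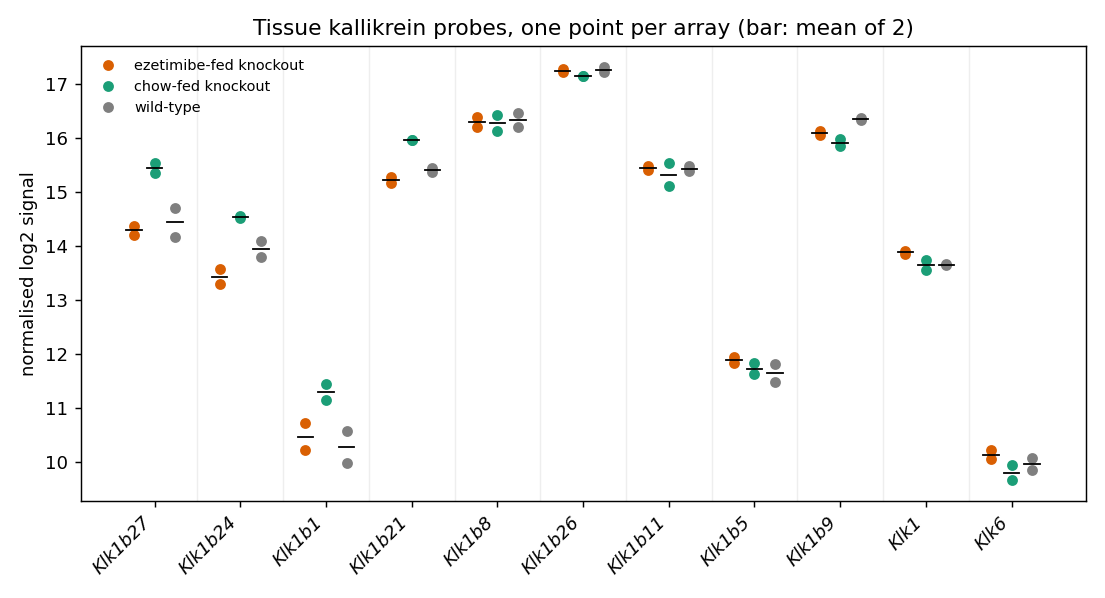
Normalised log2 signal (y axis) of the 11 kallikrein probes of the comparison (x axis), 1 point per array, with ezetimibe-fed knockouts left, chow-fed knockouts in the middle and wild-type testes right, and a bar at each mean. In Klk1b27, Klk1b24, Klk1b1 and Klk1b21 the chow-fed knockout points lie above the points of ezetimibe-fed knockouts, with differences of -1.16, -1.10, -0.83 and -0.74; in the other 7 genes the means differ by 0.02 to 0.34 in the other direction.

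Leydig cell genes were lower in ezetimibe-fed testes for several steps of steroid synthesis, but not for all. Of 16 genes of the Leydig and steroid synthesis list with a probe, 14 were in the comparison, with 11 lower and 3 higher and a median difference of -0.21, or -0.13 for the 13 detected on all 4 knockout arrays. That compares with a median of 0.0028 over all genes. The list's median was -0.06 without the first ezetimibe array and -0.32 without the second. There were 5 lower and 0 higher at an unadjusted p under 0.05, against 3.07% and 2.33% of all genes. In whole testes, fewer cells of a type and less RNA per cell cannot be told apart, and this holds for every cell type below.

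Cyp11a1, the mitochondrial enzyme that cleaves the cholesterol side chain and so starts steroid synthesis, read 13.79 and 14.01 in ezetimibe-fed testes, against 14.61 and 14.54 in chow-fed knockouts and 14.25 and 14.00 in wild-type testes. Its difference was -0.67 ± 0.14 (SE; limma adjusted p = 0.566), with no overlap between the diets. Fdx1, the ferredoxin that feeds electrons to that enzyme, read 16.86 and 16.89 in ezetimibe-fed testes, against 17.17 and 17.19 in chow-fed knockouts and 17.03 and 16.86 in wild-type testes (-0.30 ± 0.10). Tspo, a cholesterol-binding protein of the outer mitochondrial membrane, was lower by 0.42 on the log2 scale (-0.42 ± 0.14), and the diets did not overlap.

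Later in the pathway, Hsd3b6, a 3-beta-hydroxysteroid dehydrogenase of adult Leydig cells, read 11.63 and 11.65 in ezetimibe-fed testes, against 12.04 and 12.03 in chow-fed knockouts and 12.42 and 12.60 in wild-type testes (-0.39 ± 0.10). Hsd17b3, which makes testosterone from androstenedione, read 12.68 and 12.27 in ezetimibe-fed testes, against 13.01 and 12.98 in chow-fed knockouts and 13.04 and 13.01 in wild-type testes (-0.52 ± 0.16). For both of these genes wild-type testes were at or above the chow-fed knockouts, unlike Cyp11a1 and the kallikreins.

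Other Leydig genes lay closer together. Star, the carrier that brings cholesterol to the inner mitochondrial membrane, read 13.35 and 13.45 in ezetimibe-fed testes, against 13.44 and 13.62 in chow-fed knockouts, and the diets overlapped (-0.13 ± 0.11). Cyp17a1, the enzyme that turns progestins into androgens, differed by -0.28 ± 0.19. Hsd3b1, a close relative of Hsd3b6, was higher by 0.17 ± 0.11, with 14.89 and 14.74 in ezetimibe-fed testes, against 14.63 and 14.65 in chow-fed knockouts. All 6 defining Leydig markers with a named probe were detected on all 4 knockout arrays, while Insl3 and Lhcgr had no named probe.

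Sertoli cell genes were mostly lower by small amounts. Of 25 with a probe, 17 were in the comparison, all detected on all 4 knockout arrays, and 16 of them lay lower and 1 higher, with a median difference of -0.20. The share below 0 over all genes was 49.4%. At an unadjusted p under 0.05 there were 2 lower and 0 higher, against 3.07% and 2.33% of all genes. The diets did not overlap for 10 members, all of them lower, against 19.7% of all genes.

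Fshr, the receptor for follicle-stimulating hormone, read 9.79 and 9.89 in ezetimibe-fed testes, against 10.32 and 10.72 in chow-fed knockouts and 10.06 and 9.81 in wild-type testes (-0.69 ± 0.18; limma adjusted p = 0.705). Vim, the intermediate filament of Sertoli and interstitial cells, read 15.53 and 15.62 in ezetimibe-fed testes, against 15.90 and 15.82 in chow-fed knockouts and 15.74 and 15.76 in wild-type testes (-0.28 ± 0.09). Clu, the secreted chaperone clusterin and 1 of the brightest probes of the list, differed by -0.20 ± 0.10, and the identity factor Wt1 by -0.03 ± 0.13. Of the 10 defining Sertoli markers, 7 were in the comparison. Gata4 and Amh were detected on 0 of the 4 knockout arrays and Sox9 on 1.

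Collagen chains lay on both sides of 0. Of 21 collagen chains with a probe, 16 were in the comparison, with 10 lower and 6 higher and a median difference of -0.22, the same for the 14 detected on all 4 knockout arrays. That median was -0.03 without the second ezetimibe array and -0.07 without the first chow-fed knockout array. Lower at an unadjusted p under 0.05 were 4 chains and higher 0, against 3.07% and 2.33% of all genes. These 4 were fibrillar chains of types I and III and a chain of type VI.

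Col3a1 read 13.67 and 13.93 in ezetimibe-fed testes, against 15.05 and 14.70 in chow-fed knockouts and 14.15 and 13.98 in wild-type testes, a difference of -1.07 ± 0.17 (SE; limma adjusted p = 0.495). Col1a2 read 13.35 and 13.58 in ezetimibe-fed testes, against 14.20 and 14.07 in chow-fed knockouts and 13.61 and 13.40 in wild-type testes (-0.67 ± 0.14). Col1a1 read 10.88 and 10.67 in ezetimibe-fed testes, against 11.49 and 11.47 in chow-fed knockouts and 10.74 and 10.06 in wild-type testes (-0.70 ± 0.24). In all 3 genes both chow-fed knockout values were the highest of the 6 arrays.

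Col6a1, a chain of the beaded-filament collagen around cells, showed the same order with 11.40 and 11.60 in ezetimibe-fed testes, against 12.11 and 12.01 in chow-fed knockouts and 11.48 and 11.65 in wild-type testes (-0.56 ± 0.12). Among basement membrane chains, Col4a4 was higher by 0.26 ± 0.10, with 12.50 and 12.39 in ezetimibe-fed testes, against 12.14 and 12.23 in chow-fed knockouts, Col4a6 differed by -0.20 ± 0.19 and Col4a2 by 0.23 ± 0.72. The ends of the list were Col5a2 at -1.34 ± 0.85, detected on 1 ezetimibe array, and Col5a3 at 0.50 ± 0.30, detected on 1 chow-fed knockout array, both fibrillar chains of type V. Col16a1 differed by -0.07 and Col14a1 by 0.08, with overlapping diets.

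Among 38 other matrix proteins and matrix proteases with a probe, 25 were in the comparison, 18 lower and 7 higher, with a median difference of -0.28, or -0.27 for the 19 detected on all 4 knockout arrays. At an unadjusted p under 0.05 there were 7 lower and 0 higher, against 3.07% and 2.33% of all genes. Of the 25, 6 entered through detection in 1 diet alone. Serpinh1 and Mmp2 did so through the chow-fed group, where they were higher, so the filter itself favours a lower value for these 2. Serpinh1, the chaperone that folds procollagen, was detected in chow-fed knockouts at 9.48 and 9.59 but not well above background in ezetimibe-fed testes at 8.67 and 8.88, which makes it at least 1.70-fold lower. P4ha2, a subunit of collagen prolyl hydroxylase, was lower by 0.32 ± 0.12 on the log2 scale. The laminin chain Lamb2 read 13.41 and 13.40 in ezetimibe-fed testes, against 13.79 and 13.80 in chow-fed knockouts and 13.66 and 13.55 in wild-type testes (-0.39 ± 0.09).

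The laminin chain Lamb1 differed by -0.39 ± 0.12 and Nid1, which links laminin to collagen IV, by -0.45 ± 0.17. Mmp2, a gelatinase, differed by -1.26 ± 0.40 but was detected on only 1 ezetimibe array. Ccn2, a growth factor that binds matrix, differed by -0.28 ± 0.10. Bright matrix genes with a larger spread between arrays included Dcn, with overlapping diets (-0.32 ± 0.20), and Timp2 (-0.01 ± 0.14).

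The globin signal was also lower in ezetimibe-fed testes. Hba-a1, an alpha-globin chain carried by red cells, read 14.99 and 15.69 in ezetimibe-fed testes, against 18.29 and 17.26 in chow-fed knockouts and 15.93 and 15.91 in wild-type testes. Its difference of -2.43 ± 0.41 (SE; limma adjusted p = 0.495) was the largest among named genes detected on all 4 knockout arrays that reached an unadjusted p under 0.05. The chow-fed knockout arrays also differed from each other, with the higher value on replicate 1. Alas2, which starts haem synthesis in red cell precursors, read 12.03 and 12.26 in ezetimibe-fed testes, against 12.60 and 12.57 in chow-fed knockouts and 12.53 and 12.10 in wild-type testes (-0.44 ± 0.18), and Fech, the last enzyme of haem synthesis, overlapped between the diets (-0.27 ± 0.46).

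These were the 3 red cell genes in the comparison out of 9 with a probe. Their summed linear signal was 38061 and 58739 in ezetimibe-fed testes, against 328774 and 163983 in chow-fed knockouts and 69885 and 67224 in wild-type testes. Most of this sum was the Hba-a1 probe, so it says little about Alas2 and Fech. The Hba-a1 signal was thus highest in the chow-fed knockout arrays. Beside it, 4 kallikreins and most steroid synthesis, collagen, macrophage and Sertoli genes of the comparison were higher there, while 7 kallikreins were lower. The part of red cells in those differences was not tested.

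**Figure D3:**
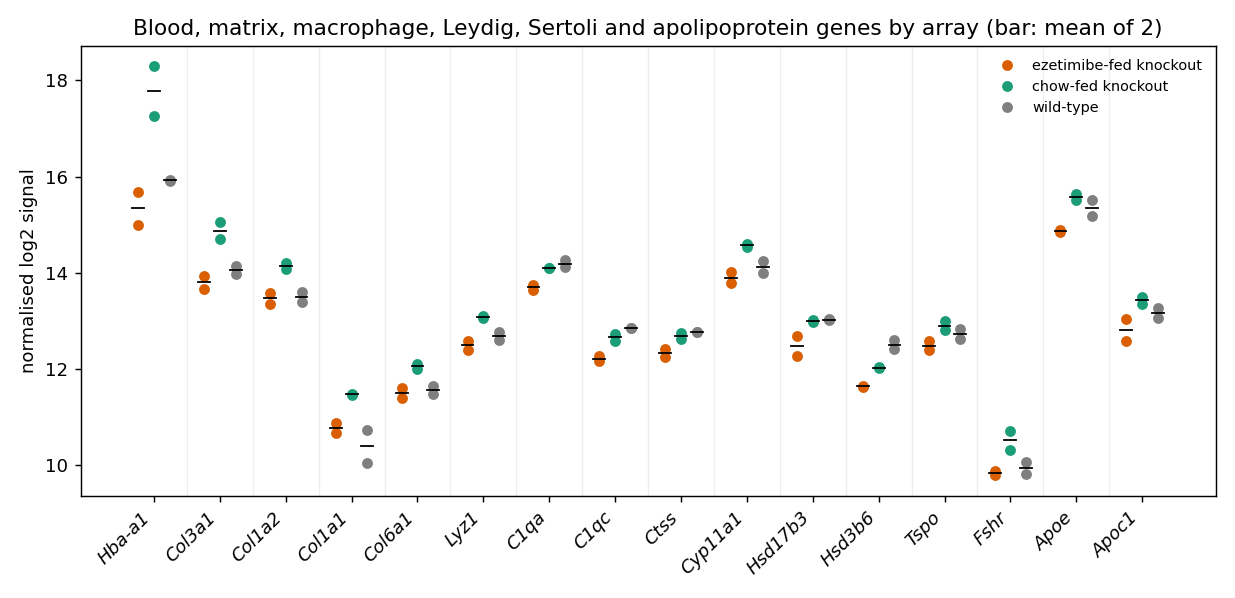
Normalised log2 signal (y axis) of blood, collagen, macrophage, Leydig, Sertoli and apolipoprotein genes (x axis), 1 point per array, with ezetimibe-fed knockouts left, chow-fed knockouts in the middle and wild-type testes right, and a bar at each mean. Both points of ezetimibe-fed knockouts lie below both points of chow-fed knockouts for all 16 genes shown, which were chosen because they differ; wild-type points lie near ezetimibe-fed ones for Col3a1 and near or above chow-fed ones for C1qa, C1qc and Hsd17b3.

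Endothelial and smooth muscle lists had few members in the comparison. Of 21 endothelial genes with a probe, 9 were in it, with 6 lower and 3 higher and a median of -0.13, which was -0.06 without the first ezetimibe array. Emcn, the endothelial surface mucin endomucin, was at least 2.09-fold lower in ezetimibe-fed testes, where it was not well above background at 7.34 and 7.41, against 8.15 and 8.72 in chow-fed knockouts. Of the peritubular myoid and smooth muscle list 9 of 17 were in the comparison, with 6 lower and 3 higher and 0 at an unadjusted p under 0.05. Their median was -0.14, or -0.06 without the second ezetimibe array or without the first chow-fed knockout array. The diets did not overlap for 5 lower and 2 higher members, against 19.7% and 19.8% of all genes, and 2 of the 9 entered through 1 diet alone. The contractile genes Acta2 and Myh11 differed by -0.19 ± 0.12 and -0.15 ± 0.13.

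Macrophage genes were lower in ezetimibe-fed testes for lysozymes, complement C1q and a lysosomal protease. Of 21 macrophage genes with a probe, 16 were in the comparison, 13 lower and 3 higher, with a median of -0.15, or -0.19 for the 14 detected on all 4 knockout arrays. At an unadjusted p under 0.05 there were 5 lower and 0 higher, against 3.07% and 2.33% of all genes. Of the 8 defining markers 5 were in the comparison, Adgre1 was detected on 0 of the 4 knockout arrays, and Csf1r and Cd68 had no named probe.

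Lyz1, a lysozyme, read 12.39 and 12.59 in ezetimibe-fed testes, against 13.11 and 13.07 in chow-fed knockouts and 12.77 and 12.60 in wild-type testes (-0.60 ± 0.12; limma adjusted p = 0.54). C1qc, a chain of the recognition part of complement C1, read 12.16 and 12.28 in ezetimibe-fed testes, against 12.73 and 12.59 in chow-fed knockouts and 12.85 and 12.86 in wild-type testes (-0.44 ± 0.10). C1qa read 13.65 and 13.75 in ezetimibe-fed testes, against 14.11 and 14.10 in chow-fed knockouts and 14.26 and 14.12 in wild-type testes (-0.40 ± 0.10). For the 2 C1q chains the ezetimibe-fed testes thus lay below both other groups, while C1qb, the remaining chain, overlapped between the diets (-0.10 ± 0.12).

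Ctss, a lysosomal protease that trims the class II invariant chain, differed by -0.36 ± 0.11 and Lyz2 by -0.39 ± 0.14. Mrc1, the mannose receptor of resident macrophages, overlapped (-0.04 ± 0.13). Chil3, a chitinase-like protein secreted by macrophages, read 9.55 and 9.75 in ezetimibe-fed testes, against 10.81 and 10.46 in chow-fed knockouts and 9.98 and 10.16 in wild-type testes (-0.98 ± 0.16; limma adjusted p = 0.495). Ccl8, a chemokine, read 12.12 and 12.47 in ezetimibe-fed testes, against 12.77 and 13.07 in chow-fed knockouts and 12.94 and 12.83 in wild-type testes (-0.62 ± 0.18). Its inflammatory cytokine list had 4 lower and 2 higher members in the comparison and a median of -0.08, or 0.18 without the second ezetimibe array. Vcam1 and Ccl5 were the higher ones, by 0.25 ± 0.09 and 0.21 ± 0.13, without overlap. On the macrophage list Ccl2 differed by 1.22 ± 0.64, with overlapping diets. Of 5 neutrophil and mast cell genes 4 were higher and 1 lower, with a median of 0.22.

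Antigen presentation genes mostly differed by small amounts. Of 7 class II genes in the comparison 4 were higher and 3 lower, with a median of 0.02. The class II chains H2-Aa, H2-Ab1 and H2-Eb1 differed by 0.08, 0.04 and 0.02, of which the last 2 changed sign under median scaling. H2-Ob, also higher, differed by 0.29 ± 0.90. The 3 lower members were Ctss (-0.36), given above, Cd74 (-0.15 ± 0.24) and H2-DMa (-0.11 ± 0.17), the last 2 with overlapping diets. Of 6 class I genes 5 were lower, with a median of -0.16, which was -0.06 without the first ezetimibe array, and 0 at an unadjusted p under 0.05. Interferon response genes were few, 8 of 18 with a probe, of which Bst2, an antiviral tether, reached an unadjusted p under 0.05 at -0.40 ± 0.12, and Isg15, a ubiquitin-like protein, read -0.46 ± 0.19. Their median was -0.29, with 5 lower and 3 higher, and -0.21 for the 5 detected on all 4 knockout arrays. Without the filter on dim probes it was 0.12.

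In the complement and coagulation list, 11 of 16 were in the comparison, with 9 lower and 2 higher. At an unadjusted p under 0.05 there were 3 lower, against 3.07% of all genes. Thbd, the endothelial anticoagulant receptor thrombomodulin, read 9.03 and 9.12 in ezetimibe-fed testes, where it was detected on 1 array, against 10.65 and 10.14 in chow-fed knockouts and 10.52 and 10.25 in wild-type testes (-1.32 ± 0.20; limma adjusted p = 0.495). Of the 11 genes, 3 entered through detection in 1 diet alone. Thbd did so through the chow-fed group, where it was higher, so the filter itself favours a lower value for it. Plat, the tissue plasminogen activator, differed by -0.41 ± 0.13 and Serping1, the C1 inhibitor, by -0.35 ± 0.11. Lymphocyte markers were scarce: 0 of the 4 defining T and B cell markers with a named probe were in the comparison. Of 16 T, B and natural killer cell genes with a probe 8 were in the comparison, 5 lower and 3 higher. Their median was -0.12, or -0.22 for the 4 detected on all 4 knockout arrays. Prf1, the perforin of cytotoxic cells, was at least 3.30-fold higher in ezetimibe-fed testes, with 9.13 and 9.37 there. In chow-fed knockouts it read 7.31 and 7.74, not well above background. Prf1 thus entered through the ezetimibe-fed group alone, where it was higher. Cd8b1, a co-receptor chain of cytotoxic T cells, went the other way (-0.42 ± 0.11).

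Sterol genes were examined next, since the drug acts on sterol uptake. Apoe, the lipoprotein ligand made by macrophages and many other cells, read 14.88 and 14.84 in ezetimibe-fed testes, against 15.64 and 15.52 in chow-fed knockouts and 15.51 and 15.17 in wild-type testes (-0.72 ± 0.14; limma adjusted p = 0.54). Apoc1, encoded beside Apoe, read 13.04 and 12.59 in ezetimibe-fed testes, against 13.50 and 13.36 in chow-fed knockouts and 13.26 and 13.07 in wild-type testes (-0.61 ± 0.18). Both genes belong to the list of targets of LXR, the nuclear receptor for oxysterols, of which 8 of 17 with a probe were in the comparison, 5 lower and 3 higher. Lpcat3, another target, overlapped (0.05 ± 0.11, below 0 under median scaling), Srebf1 differed by -0.17 ± 0.11, and Nr1h3, which encodes LXR alpha, by 0.12 ± 0.09.

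The enzymes of cholesterol synthesis lay on both sides of 0. Of 15 with a probe 14 were in the comparison, 9 higher and 5 lower, with a median of 0.06. That median was 0.13 without the first ezetimibe array and -0.02 without the second. Mvd, which makes isopentenyl diphosphate, read 10.61 and 10.60 in ezetimibe-fed testes, against 11.02 and 10.97 in chow-fed knockouts and 11.11 and 11.09 in wild-type testes (-0.39 ± 0.09; limma adjusted p = 0.624). Tm7sf2, a sterol reductase later in the pathway, had the opposite sign, with 12.88 and 13.20 in ezetimibe-fed testes, against 12.67 and 12.72 in chow-fed knockouts and 13.20 and 13.29 in wild-type testes (0.35 ± 0.14). Sqle, the squalene epoxidase, differed by 0.15 ± 0.18, and Insig1, an inhibitor of SREBP processing, by 0.21 ± 0.25.

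The lists of sterol sensing and uptake and of sterol transfer and ester storage held 8 and 21 genes of the comparison, with medians of -0.10 and -0.01 and 0 members at an unadjusted p under 0.05. Of 12 ABC transporters in the comparison, including Abcg8, 6 were higher and 6 lower. In fatty acid metabolism, Hadha, the alpha subunit of the mitochondrial trifunctional protein, read 11.53 and 11.36 in ezetimibe-fed testes, against 10.98 and 11.14 in chow-fed knockouts (0.39 ± 0.12), and Lpin1, a phosphatidate phosphatase, differed by 0.31 ± 0.11. Gal3st1, the sulfotransferase that makes the sperm lipid seminolipid, was higher by 0.52 ± 0.18, and Smpd2, a neutral sphingomyelinase, differed by -0.45 ± 0.14.

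Nr0b2, which encodes the orphan receptor SHP that represses bile acid synthesis in liver, was among the genes with the lowest p on the higher side. It read 9.17 and 9.74 in ezetimibe-fed testes, against 7.72 and 7.91 in chow-fed knockouts and 9.06 and 8.39 in wild-type testes. It was not well above background in chow-fed knockouts or wild-type testes, which makes it at least 3.13-fold higher than in chow-fed knockouts (limma adjusted p = 0.495).

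**Figure D4:**
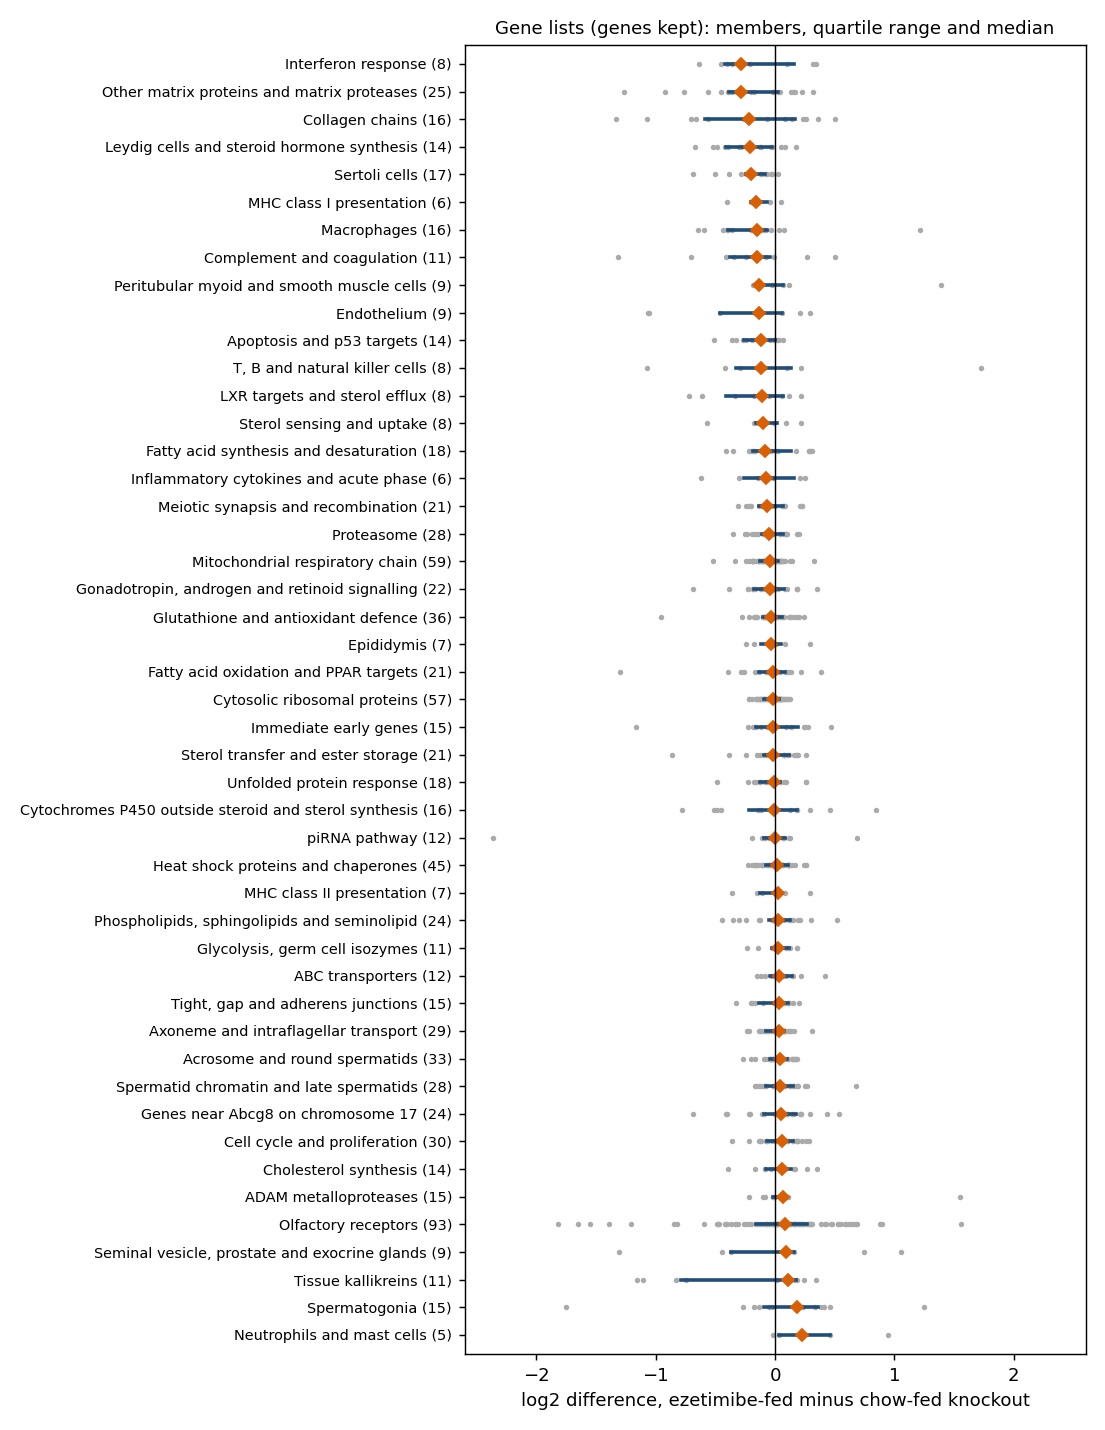
Log2 difference, ezetimibe-fed minus chow-fed knockout (x axis), for the members of each gene list with at least 5 genes in the comparison (y axis, number of genes in brackets). Grey points are genes, blue bars span the middle quartiles, orange diamonds are medians and the vertical line is the median of all genes, 0.0028. The interferon, matrix, collagen, Leydig and Sertoli lists have medians of -0.29 to -0.20, while acrosome, axoneme and ribosomal lists lie between -0.02 and 0.04.

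Germ cell genes, which supply most of the RNA of the adult testis, differed little between the diets. The 21 genes of meiotic synapsis and recombination had a median difference of -0.06, the 33 acrosome and round spermatid genes of 0.04, the 28 late spermatid genes of 0.04 and the 29 axoneme genes of 0.03. Across these 4 lists, 2 genes were higher at an unadjusted p under 0.05 and 0 were lower, against 2.33% and 3.07% of all genes. They were Spag1, an assembly factor of axonemal dynein, and Fscn3, a testis-specific actin bundling protein.

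Spag1 read 14.43 and 14.50 in ezetimibe-fed testes, against 14.12 and 14.19 in chow-fed knockouts and 14.36 and 14.43 in wild-type testes (0.31 ± 0.09). Fscn3 read 16.64 and 16.63 in ezetimibe-fed testes, against 16.32 and 16.43 in chow-fed knockouts and 16.53 and 16.46 in wild-type testes (0.26 ± 0.10). The markers of successive stages were close together: the synaptonemal and recombination genes Hormad1 and Dmc1 differed by 0.20 ± 0.09 and -0.20 ± 0.16, the spermatid genes Tssk1 and Spaca1 by 0.18 ± 0.10 and -0.17 ± 0.10, and the protamine gene Prm2 by -0.10.

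Spermatogonial genes were split. Of 22 with a probe 15 were in the comparison, 9 higher and 6 lower, with a median of 0.19, which was 0.06 without the second ezetimibe array and 0.07 without the second chow-fed knockout array. Utf1, a chromatin protein of undifferentiated spermatogonia, read 12.24 and 12.30 in ezetimibe-fed testes, against 12.05 and 11.83 in chow-fed knockouts and 12.18 and 12.11 in wild-type testes (0.34 ± 0.12). Dazl, an RNA-binding protein of germ cells, read 13.28 and 13.38 in ezetimibe-fed testes, against 13.65 and 13.55 in chow-fed knockouts and 13.58 and 13.55 in wild-type testes (-0.27 ± 0.10). Sall4, a transcription factor of spermatogonia, was at least 3.27-fold lower, with 6.76 and 7.91 in ezetimibe-fed testes, against 8.90 and 9.26 in chow-fed knockouts and 7.06 and 7.51 in wild-type testes, and it was detected in the chow-fed knockouts alone. Kit, the receptor of differentiating spermatogonia, differed by 0.46 ± 0.22.

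**Figure D5:**
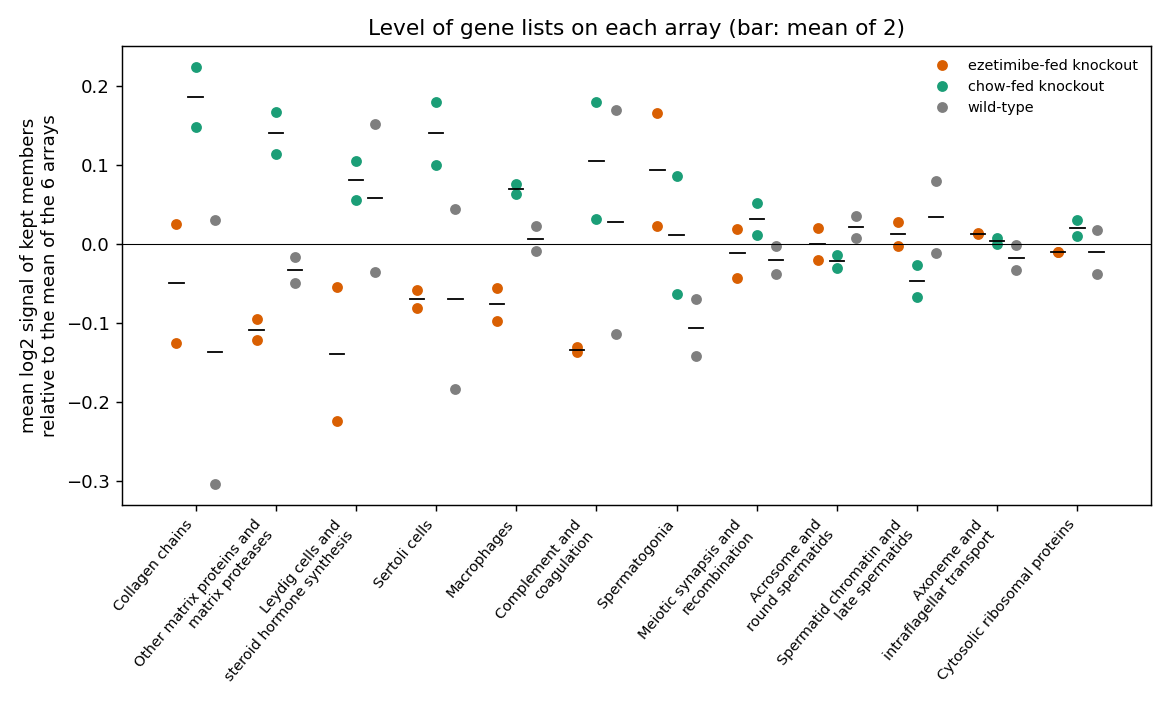
Mean log2 signal of the members of 12 gene lists (x axis) for each array, less the list's 6-array mean (y axis), with ezetimibe-fed knockouts left, chow-fed knockouts in the middle and wild-type testes right, and a bar at each mean. The collagen list stands at 0.03 and -0.13 in ezetimibe-fed knockouts, against 0.22 and 0.15 in chow-fed knockouts, and the Sertoli list at -0.06 and -0.08, against 0.18 and 0.10, while the acrosome list stands at -0.02 and 0.02, against -0.03 and -0.01.

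The remaining genes with the lowest p on the higher side were for the most part dim. Galnt14, which starts O-linked glycosylation, read 12.49 and 12.42 in ezetimibe-fed testes, against 11.77 and 11.78 in chow-fed knockouts and 12.17 and 12.32 in wild-type testes (0.68 ± 0.10; limma adjusted p = 0.495). Slc30a6, a zinc transporter of the Golgi, read 12.66 and 12.80 in ezetimibe-fed testes, against 11.82 and 12.00 in chow-fed knockouts and 11.98 and 12.24 in wild-type testes (0.81 ± 0.14; limma adjusted p = 0.495). Both were detected on all 6 arrays, and their diets did not overlap.

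At lower signal, Afap1, which crosslinks actin filaments, differed by 0.73 ± 0.13, Cdk19, a kinase of the Mediator complex, by 0.81 ± 0.09, Itpka, an inositol trisphosphate kinase, by 0.56 ± 0.10, and Ccdc22, a subunit of an endosomal sorting complex, by 0.70 ± 0.12. Fyco1, which links autophagosomes to kinesin, differed by 1.10 ± 0.12 and was detected on 1 chow-fed knockout array. Gemin8, a subunit of the SMN complex that assembles splicing particles, showed the largest bound on this side. It read 9.82 and 9.45 in ezetimibe-fed testes, against 6.76 and 7.42 in chow-fed knockouts and 7.25 and 7.96 in wild-type testes, at least 5.80-fold higher (limma adjusted p = 0.468).

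Others were likewise not well above background in chow-fed knockouts. These were Rgs5, a regulator of G protein signalling in pericytes (at least 3.57-fold higher), Rdh16f2, of the retinol dehydrogenase family (at least 3.06-fold), Adam22, a catalytically inactive ADAM protein (at least 2.92-fold), Dcpp1, a secreted protein of salivary glands (at least 2.08-fold), and Gid4, the substrate receptor of an E3 ubiquitin ligase (at least 1.71-fold). Ap1m2, an epithelial clathrin adaptor subunit, differed by 0.72 ± 0.13. The remaining large differences with an unadjusted p under 0.05, in Cemip, Noxa1, Ugt3a2, Susd4 and Fmnl1, were bounds of at least 3.31-fold to 3.89-fold, and Zfp292 differed by 2.06 ± 0.73.

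On the lower side, Fam177a was measured by 2 bright probes that agreed in sign. They read 16.83 and 16.88 in ezetimibe-fed testes, against 17.45 and 17.69 in chow-fed knockouts and 17.56 and 17.57 in wild-type testes (-0.71 ± 0.12), and, on the dimmer probe, 15.68 and 15.76 in ezetimibe-fed testes, against 16.61 and 16.70 in chow-fed knockouts (-0.94 ± 0.13). Ezetimibe-fed testes thus lay below both other groups at the brighter probe. Necap1, an adaptor of clathrin-coated vesicles, read 8.52 and 8.68 in ezetimibe-fed testes, against 9.60 and 9.85 in chow-fed knockouts and 9.53 and 9.69 in wild-type testes (-1.13 ± 0.14; limma adjusted p = 0.45).

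The other lower genes were not well above background in ezetimibe-fed testes. Homer1, a postsynaptic scaffold protein, read 6.95 and 7.72 in ezetimibe-fed testes, against 9.16 and 9.57 in chow-fed knockouts and 9.35 and 9.55 in wild-type testes, at least 4.09-fold lower. Sfxn3, a mitochondrial serine transporter, was at least 3.88-fold lower and Myo10, the myosin of filopodia, at least 3.83-fold lower, and both were also not well above background in wild-type testes. Pou3f1, a transcription factor (at least 2.79-fold), B4galnt2, a glycosyltransferase (at least 2.76-fold), Skint9, an immunoglobulin-like membrane protein (at least 2.50-fold), Brd8, a bromodomain subunit of a histone acetyltransferase complex (at least 5.49-fold), Wfdc2, a secreted protease inhibitor of epithelia (at least 4.38-fold), and Olfr1495, an olfactory receptor (at least 3.53-fold), completed the group.

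Among stress and detoxification genes, the 14 apoptosis and p53 target genes had a median of -0.12, with 10 lower and 4 higher and 0 at an unadjusted p under 0.05. The 4 genes of glucuronidation and sulfation had a median of -0.13, which was 0.21 without the filter on dim probes. Gpx3, the secreted glutathione peroxidase, read 9.86 and 9.69 in ezetimibe-fed testes, where it was detected on 1 array, against 10.68 and 10.77 in chow-fed knockouts and 10.57 and 10.15 in wild-type testes (-0.96 ± 0.17; limma adjusted p = 0.495). The other 35 glutathione and antioxidant genes in the comparison included 0 at an unadjusted p under 0.05, and the list's median was -0.03. Eif2ak3, the PERK kinase of the unfolded protein response, differed by -0.49 ± 0.14 and Dnajb9, a chaperone of the endoplasmic reticulum, by 0.26 ± 0.09, in a list of 18 with a median of -0.01. The 45 heat shock proteins and chaperones had a median of 0.02. Among 16 cytochromes P450 outside steroid and sterol synthesis, Cyp4f14 was higher by 0.46 ± 0.14 and Cyp2s1 was at least 1.71-fold lower.

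Housekeeping groups had small median differences. The 57 ribosomal protein genes had a median of -0.02, with 33 lower and 24 higher, the 28 proteasome genes a median of -0.05, and the 59 genes of the respiratory chain a median of -0.04, with 38 lower and 21 higher. In the respiratory chain the diets did not overlap for 25 lower and 5 higher genes, against 19.7% and 19.8% of all genes. Ndufa3, a subunit of complex I, was its gene at an unadjusted p under 0.05 (-0.34 ± 0.12). The 24 genes near Abcg8 on chromosome 17 had a median of 0.05, and Fshr was the 1 member at an unadjusted p under 0.05. Of 738 olfactory receptors with a probe 93 were in the comparison, 56 higher and 37 lower. At an unadjusted p under 0.05 there were 3 higher and 5 lower, against 2.33% and 3.07% of all genes. Of the 93 receptors, 36 entered through detection in 1 diet alone.

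Tissues that could be carried along with the testis gave no list that lay to 1 side. Of the epididymal list 7 of 20 were in the comparison, with a median of -0.03 and 0 at an unadjusted p under 0.05, and Lcn5 was detected on 0 of the 4 knockout arrays. Of the seminal vesicle, prostate and exocrine list 9 of 25 were in the comparison, among them Dcpp1 given above, Svs5 at -0.45 ± 0.22 and Svs4, with overlapping diets, at 0.74 ± 0.69. The 3 adipocyte genes had a median of 0.01, and Lep and Retn were detected on 0 of the 4 knockout arrays. Of 13 liver and kidney genes with a probe 3 were in the comparison, 1 higher and 2 lower, with a median of -0.35. Umod, a kidney protein, was at least 2.33-fold higher in ezetimibe-fed testes, where it read 7.90 and 8.55, against 7.10 and 6.57 in chow-fed knockouts. It entered through detection in the ezetimibe-fed group alone, where it was higher. Apoa2 and Aqp2 were lower, by -0.35 ± 0.26 and -0.35 ± 0.47.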

How the data were processed

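RNA of whole testes was read on 1-colour arrays of 33012 probes, labelled with digoxigenin. Per the file headers, the authors deposited a raw intensity per probe and array, a score of signal to noise beside it, and a table of processed intensities in which each array is its raw signal divided by a constant. No source used here names the scanner software. Of the probes, 14411 carried 1 gene symbol, 247 several and 18354 none, and only probes with 1 symbol were named.

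Raw intensities were taken as log2 and quantile-normalised in limma 3.58.1 (R 4.3.3). Probes with a signal-to-noise score of 3 or more on both arrays of any of the 3 groups were tested (16015), with lmFit and eBayes over all 6 arrays, the contrast ezetimibe-fed minus chow-fed knockout, and Benjamini-Hochberg adjustment over all of them at 0.05. The 2 wild-type arrays contribute to the spread alone. The test was tried on simulated data with known changes. A gene not well above background on both arrays of a group is given as a bound only. The labels give no batch, slide or scan date, and no numbers that pair arrays across diets.

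Named genes were Abcg8 and Abcg5. To these were added, among genes whose diets did not overlap and whose higher group detected them on both arrays, the 15 in each direction with the lowest p and the 8 in each direction with the largest difference at an unadjusted p under 0.05. Named genes called under an alternative, up to 4 members of each of 52 gene lists with the lowest p, and the defining markers completed the rule. Other list members, such as those given because the diets overlapped, were chosen after their values were seen. The members of the comparison and the gene lists were chosen with earlier results of these data known. Of 221 genes with several probes, 103 had probes of opposite sign. Alternatives concerned normalisation, background correction, the filter on dim probes, the prior variance, array weights, the arrays in the fit and leaving out each array.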

Additional observations from a re-analysis of the deposited data

How the results depend on the processing

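The number of probes passing an adjusted p under 0.05 in limma, 0 of 16015 tested (922 at an unadjusted p under 0.05), was 14 with an intensity trend in the prior variance and 7 with the trend and a robust prior together, all of them lower in ezetimibe-fed testes; the cause was not tested. Leaving out 1 array at a time gave 0 to 4 probes. Those were 4 without the first ezetimibe array and 2 without the second, Kctd5 and Dido1, which stood far above the other arrays on the first ezetimibe array alone; the lone ezetimibe array is assumed in such a fit to vary like the other groups. The count was 0 under each other alternative, and the lowest adjusted p ranged from 0.00315 to 0.731 over all of them. Median scaling and the authors' processed values moved the median difference of all probes to -0.05 in both, from 0.0009. The median of the kallikrein list turned to -0.09 without the second chow-fed knockout array. Of 134 named genes 119 kept the sign of their difference under each alternative that gave them a value, which was 16 to 18 alternatives, and 15 with small or scattered differences did not. Under median scaling the signs turned for Lpcat3 (-0.014), H2-Ab1 (-0.023), Klk1b8 (-0.029) and H2-Eb1 (-0.035), and with the authors' processed values for the same genes (-0.016, -0.023, -0.030 and -0.036). Leaving out 1 array at a time gave C1qb -0.19 to 0.00016, Col14a1 -0.043 to 0.21, Col16a1 -0.15 to 0.015, Col4a6 -0.44 to 0.049, Fech -0.92 to 0.38, H2-Ab1 -0.083 to 0.17, H2-Eb1 -0.034 to 0.078, Insig1 -0.12 to 0.54, Klk1b11 -0.085 to 0.35, Klk1b8 -0.13 to 0.16, Lpcat3 -0.037 to 0.15, Mrc1 -0.18 to 0.099, Sqle -0.056 to 0.37, Svs4 -0.28 to 1.76 and Timp2 -0.14 to 0.11 as the log2 difference. No paired analysis was possible because the labels give the arrays only numbers that the diet groups do not share. Probes near background have only bounds.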

Other observations

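Among the probes that passed under an alternative prior variance, 6 had no gene name. Probe 387701 read 12.66 and 12.42 in ezetimibe-fed testes, against 15.02 and 14.29 in chow-fed knockouts and 15.28 and 14.99 in wild-type testes, and probe 844296 read 11.31 and 10.96 in ezetimibe-fed testes, against 13.30 and 12.40 in chow-fed knockouts and 14.45 and 14.31 in wild-type testes. At both, ezetimibe-fed testes lay below the other groups. Probe 363857 read 12.56 and 12.56 in ezetimibe-fed testes, against 13.49 and 13.47 in chow-fed knockouts and 13.19 and 13.53 in wild-type testes. Probe 719563 read 16.10 and 16.86 in ezetimibe-fed testes, against 19.21 and 18.25 in chow-fed knockouts and 17.02 and 17.13 in wild-type testes, and on the 4 knockout arrays it had the same order as Hba-a1, as did probes 847962 and 740005.

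Some probes were bright on 1 array alone, by more than 3 on the log2 scale above each of the other 5. There were 6 such probes on the first ezetimibe array, 4 on the second, 1 and 2 on the chow-fed knockout arrays, and 0 and 2 on the wild-type arrays. Kansl1l read 17.46 and 11.03 in ezetimibe-fed testes, against 10.88 and 10.49 in chow-fed knockouts. Dido1 read 15.66 and 11.02 in ezetimibe-fed testes, against 10.97 and 10.99 in chow-fed knockouts. Wdr77 read 10.85 and 10.62 in ezetimibe-fed testes, against 10.14 and 16.05 in chow-fed knockouts, and Hunk read 12.85 and 17.57 in wild-type testes. These genes were chosen after their values were seen.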
